A study of Homo sapiens with 3 samples.

Results

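The comparison described here sets the library labelled LINC00273 overexpression against the untreated control library, both made from spheres of MDA-MB-231 cells, a human breast cancer line that lacks hormone receptors and HER2. The 2 libraries were taken by their labels, out of 3 in the series, and the remaining library, from spheres treated with 10 µM of a compound known only as M2, is given beside them. All 57773 genes of the deposited table were read, of which 3842 reached 100 reads in at least 1 of the 2 libraries compared and entered the counts of differences. The library labelled LINC00273 overexpression came from wild-type cells transfected with a LINC00273 clone in a pcDNA plasmid under the CMV promoter, and its label describes a more metastatic tumour phenotype. The control came from wild-type cells with no treatment, and no transfection with an empty plasmid is named for it, so transfection and insert cannot be told apart. All 3 labels give 24 h, and all spheres grew in low-adhesion plates in DMEM with 20 ng/ml EGF, insulin, B27 and BSA. Each group has 1 library, so no difference has a replicate check and no p-value is given.

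LINC00273 is a long non-coding RNA, a transcript that is not translated. The series title ties it to a G-quadruplex, a stacked fold that strands with several runs of guanine can form, and to binding of microRNAs, short RNAs that pair through their seed with messages and silence them with the help of Argonaute and GW182 proteins. The TGF-beta pathway, to which SMAD7 and SKIL at the top of the comparison belong, passes a signal from a secreted ligand through paired receptor kinases to SMAD proteins, which enter the nucleus and switch on target genes, among them inhibitors that close the loop.

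LINC00273 (ENSG00000256642) lies in the GRCh38 annotation on the minus strand of chromosome 16, from 34158585 to 34160036, as 1 exon of 1452 nt with a GC content of 70.4%. It had 0 reads in the LINC00273-labelled library, 0 in the M2 library and 0 in the control, so the label is not backed by reads on this gene and the library is called by its label throughout. With a limit of 3 fragments, a count of 0 allows up to 1.17 CPM (counts scaled to the library total) in the LINC00273-labelled library, 1.28 CPM in the M2 library and 0.696 CPM in the control. Whether reads from this locus could be counted at all is not given in the sources used here, and 3 of the 3842 genes reached its GC content. The transcript holds 2 stretches with 4 runs of at least 3 guanines and at most 7 bases between them, the letters that can fold into a G-quadruplex. They are shown from GENCODE 29 with the guanine runs in capitals, the first at chr16:34159897-34159922 and the second at chr16:34159325-34159351, both on the minus strand.
LINC00273 stretch 1: GGGGcggtGGGaGGGGGGtggtGGGG
LINC00273 stretch 2: GGGaccgcaaGGGcaaGGGcacccGGG
The miR-200 family, whose targets include the EMT factors ZEB1 and ZEB2, is shown from RefSeq (GRCh38.p14) with bases 2 to 8, the seed, in capitals.
hsa-miR-141-3p: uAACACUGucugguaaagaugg
hsa-miR-200a-3p: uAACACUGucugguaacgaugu
hsa-miR-200b-3p: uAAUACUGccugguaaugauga
hsa-miR-200c-3p: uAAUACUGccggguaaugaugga
hsa-miR-429: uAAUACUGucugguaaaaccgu
The first pair shares 1 seed and the other 3 share another. The LINC00273 transcript holds 0 matches to bases 2 to 8 and 0 to bases 2 to 7 of any of the 5, which says only that these letters are not in it. Which microRNAs the title means is not given in the sources used here.

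The LINC00273-labelled library held 5123199 reads on genes, the M2 library 4695535 and the control 8620534, and most fragments counted as 2 reads. RN7SL1 and RN7SK, abundant structural RNAs that depletion of ribosomal RNA leaves in place, took 42.8% of them in the labelled, 39.3% in the M2 and 54.7% in the control library. Labelled, M2 and control reads are those of the 3 libraries. Levels below are reads as recovered from the deposited values, and ratios are log2 ratios of TMM-scaled reads, labelled library over control, with a 95% exact binomial (Clopper-Pearson) interval that covers counting error only. In bulk RNA, fewer cells of a type and less RNA per cell cannot be told apart.

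The labelled tissue was checked against 17 markers of mesenchymal breast cancer lines of this kind. VIM, the filament protein vimentin, had 8910 reads in the LINC00273-labelled library, 4182 in the M2 library and 11763 in the control. MSN, the membrane linker moesin, had 2286 labelled, 1189 M2 and 2509 control reads. CD44, the hyaluronan receptor, was low, with 44 labelled, 29 M2 and 86 control reads. ANXA1 had 4 labelled, 15 M2 and 13 control reads, FOSL1 had 0 labelled, 2 M2 and 10 control reads, TIMP1 had 4 labelled, 2 M2 and 0 control reads and PLAUR had 0 labelled, 2 M2 and 2 control reads. So 8 of the 17 markers were under 20 reads in the LINC00273-labelled library and 8 in the control. Of the 10 with at least 20 reads over both libraries, 6 were at least 1.5-fold lower than the control and 0 higher. Over all 8828 genes measured in this way 25.2% were that much lower. The median log2 ratio of the 10 markers was −0.65, and −0.05 after centring on genes of like GC content. The adhesion gene NCAM1, a marker from a list of neural and HEK293-type genes, had 1442 labelled, 1308 M2 and 1729 control reads. Of the 15 genes on that list, 8 were under 20 reads in the LINC00273-labelled library, 10 in the M2 library and 10 in the control. Some genes that most cells use were also near the floor (LDHA had 38 labelled, 19 M2 and 46 control reads) and 0 of 13 mitochondrially encoded genes were measured, so levels were not compared between genes.

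By size, the LINC00273-labelled library stood 2-fold or more above the control for 199 of the 3842 genes, 5.18%, and 2-fold or more below it for 254, 6.61%. Most differences were small. The median log2 ratio was −0.21, the 25th and 75th percentile were −0.64 and 0.38, and 54.4% lay within 1.5-fold. Between 4-fold and 8-fold there were 6 higher and 5 lower genes, and past 8-fold 0 higher and 4 lower. The 4 were HBB, HBA2, HBA1 and B2M. Of the higher genes 197 were protein coding and of the lower ones 210, while pseudogenes gave 2 higher and 37 lower of 284. Scaled to the total count every ratio is 0.52 larger, the counts become 823 higher and 37 lower, and any ratio or median between −0.52 and 0 turns positive.

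**Figure D1:**
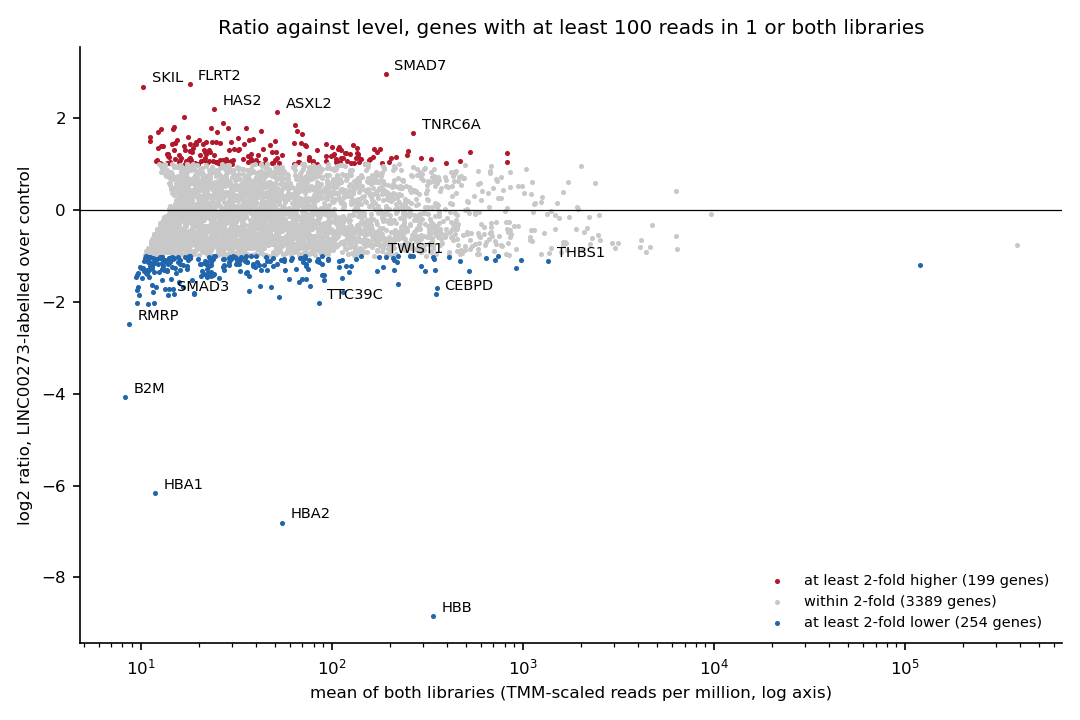
Log2 ratio of the LINC00273-labelled library over the control (vertical) against the mean of both libraries in TMM-scaled CPM (horizontal, log axis), 1 point for each of the 3842 genes. 199 genes lie at least 2-fold above the line of no difference and 254 at least 2-fold below it, with SMAD7 at the top at 2.95 and HBB at the bottom at −8.85.

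SMAD7, the inhibitory SMAD that blocks the TGF-beta receptor and is itself a target of the pathway, had the largest ratio of the genes tested. It had 2074 reads in the LINC00273-labelled library, 596 in the M2 library and 315 in the control. The ratio over the control was 2.95 (2.71 to 3.20), or 7.73-fold. The level in the labelled library was also above that in the M2 library, by a log2 ratio of 1.41 (1.22 to 1.60). SKIL, which encodes the SMAD corepressor SnoN, had 109 labelled, 82 M2 and 20 control reads. Its ratio was 2.68 (1.69 to 3.82), and the labelled and the M2 library lay together, 0.02 apart on the log2 scale (−0.59 to 0.64). The promoters of both genes are shown from RefSeq, 250 bases before to 50 after the start, with the SMAD box CAGAC or its complement in capitals. That of SMAD7 is chr18:48950916-48951215 on the minus strand and that of SKIL chr3:170357465-170357764 on the plus strand (GRCh38.p14).
SMAD7 promoter: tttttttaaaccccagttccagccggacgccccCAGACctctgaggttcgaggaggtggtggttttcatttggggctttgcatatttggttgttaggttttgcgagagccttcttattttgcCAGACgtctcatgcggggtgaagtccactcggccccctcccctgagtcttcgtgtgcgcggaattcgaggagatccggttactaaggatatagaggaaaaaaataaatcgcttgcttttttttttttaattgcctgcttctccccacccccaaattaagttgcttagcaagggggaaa
SKIL promoter: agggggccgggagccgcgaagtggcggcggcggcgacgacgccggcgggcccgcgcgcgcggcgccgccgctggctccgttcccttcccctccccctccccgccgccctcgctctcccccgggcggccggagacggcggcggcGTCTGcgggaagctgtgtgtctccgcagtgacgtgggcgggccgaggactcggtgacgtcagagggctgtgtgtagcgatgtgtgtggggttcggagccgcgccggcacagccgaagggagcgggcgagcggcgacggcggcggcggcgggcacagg
The SMAD7 window holds 2 such boxes on either strand and the SKIL window 1, and 12274 of the 27305 promoters of the same length hold at least 1. The longer palindrome GTCTAGAC is in neither window and in 55 of all 27305. Each window is set on 1 start of its gene, and bases outside it were not searched.

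Of the ligands and latent binding proteins of the TGF-beta family, 10 of 13 were measured (at least 20 reads over both libraries), with 3 at least 1.5-fold higher, 3 at least 1.5-fold lower and a median of −0.20, which total-count scaling turns positive. Among all 8828 measured genes 21.7% were that much higher and 25.2% that much lower, with a median of −0.08. LTBP1, which stores latent TGF-beta in the matrix, had 174 reads in the LINC00273-labelled library, 66 in the M2 library and 89 in the control (ratio 1.20, 0.66 to 1.75). INHBB, a subunit of activin B, was lower with 372 labelled, 182 M2 and 934 control reads (−1.10, −1.35 to −0.85). THBS1, thrombospondin 1, which can release TGF-beta from its latent form, was lower with 5238 labelled, 3832 M2 and 13409 control reads (−1.12, −1.19 to −1.06). TGFB1, the main ligand, had 50 labelled, 10 M2 and 71 control reads, and its interval, −1.07 to 0.50, spans no difference.

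Of the type I and II receptors and coreceptors 6 of 8 were measured, and 1 of them passed 1.5-fold. The shares over all measured genes were 21.7% at least 1.5-fold higher and 25.2% lower. TGFBR1, the type I receptor kinase, had 83 reads in the LINC00273-labelled library, 62 in the M2 library and 26 in the control (1.91, 0.98 to 2.93). Its partner TGFBR2 had 119 labelled, 46 M2 and 152 control reads (−0.12, −0.64 to 0.39). BMPR2, the type II receptor for BMP ligands, was the 1 member of the BMP list at least 1.5-fold higher, against 4 lower among 10 measured (median 0.21, −0.13 after GC centring). It had 400 labelled, 316 M2 and 144 control reads (1.71, 1.31 to 2.11). The BMP targets ID3 (24 labelled, 44 M2 and 58 control reads, −1.04) and ID4 (18 labelled, 30 M2 and 46 control reads, −1.12) lay lower, and the interval of ID4 reached past 0.

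Of the SMADs and their regulators 19 of 23 were measured, 5 were at least 1.5-fold higher and 2 lower, with a median of 0.32. The shares over all measured genes were 21.7% higher and 25.2% lower. After GC centring the median was 0.15, against 0.10 for all measured genes. SMAD3, a receptor-activated SMAD, went the other way from SMAD7, with 37 reads in the LINC00273-labelled library, 58 in the M2 library and 157 in the control (−1.85, −2.67 to −1.11). SMAD2, the other SMAD activated by TGF-beta receptors, had 629 labelled, 644 M2 and 563 control reads (0.39, 0.15 to 0.63). The shared partner SMAD4 had 348 labelled, 310 M2 and 271 control reads (0.59, 0.26 to 0.93). TRIM33, a ubiquitin ligase that acts on SMAD4, stood at 1.12 and USP9X, which removes ubiquitin from it, at 0.96. SKI, the relative of SKIL, stood at 0.32 and SMAD6, the inhibitory SMAD of the BMP branch, at −0.30 (−0.84 to 0.23). The remaining members lay between −0.62 (TGIF1) and 0.50 (RNF111), with SMURF2 at 0.37, NEDD4L at −0.26, PPM1A at −0.36 and STRAP at −0.49.

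TGF-beta target genes had the highest median of the 75 lists with at least 3 measured members, 0.75 over 14 of 24, and 0.85 after centring on genes of like GC content. The lists were chosen with earlier results of these data known, so the rank is no independent support. Of the 14 genes, 7 were at least 1.5-fold higher and 2 lower, and 7 reached 100 reads in a library. Among the 7 with 100 reads, 4 were called higher at 2-fold and 0 lower. As background, 21.7% of all measured genes lay above the control by 1.5-fold and 25.2% below it. The background median was −0.08, or 0.10 once centred. HAS2, which makes hyaluronan, had 244 reads in the LINC00273-labelled library, 74 in the M2 library and 63 in the control (2.19, 1.61 to 2.80). FN1, the matrix protein fibronectin, had 620 labelled, 170 M2 and 266 control reads (1.45, 1.15 to 1.76). The matricellular genes CTGF (74 labelled, 24 M2 and 30 control reads, 1.53) and CYR61 (268 labelled, 111 M2 and 125 control reads, 1.33) and the integrin gene ITGAV (136 labelled, 76 M2 and 73 control reads, 1.13) were also higher. For HAS2, FN1, CTGF, CYR61 and ITGAV the level in the labelled library was the highest of the 3. BHLHE40, a transcription factor gene, had 24 reads there, 2 in the M2 library and 0 in the control, and COL4A1 had 39 labelled, 4 M2 and 13 control reads. JUNB stood at 0.27, TPM1 at −0.46, RHOB at −0.57 and COL1A1 at −0.77.

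**Figure D2:**
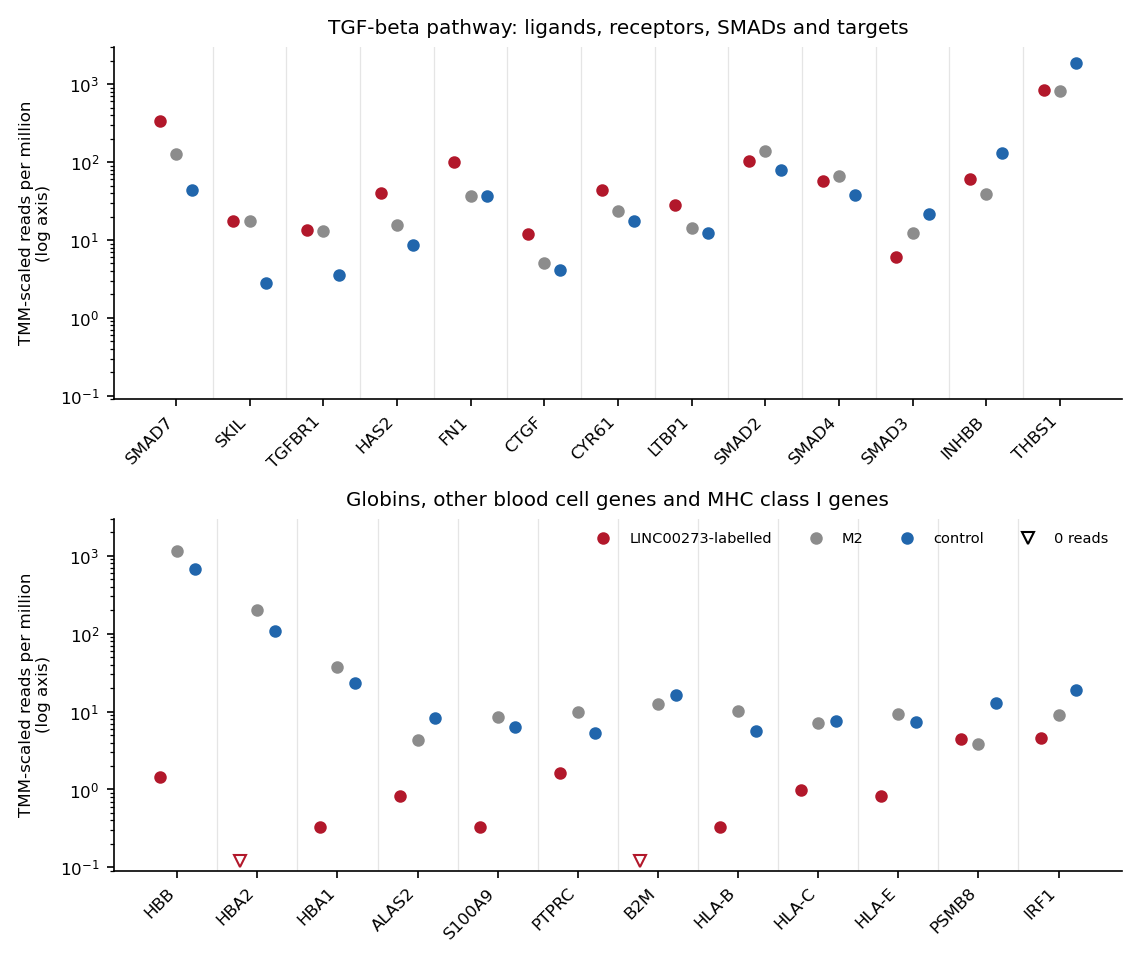
TMM-scaled CPM (vertical, log axis) of genes of the TGF-beta pathway (upper panel) and of globin, other blood cell and MHC class I genes (lower panel), 1 point per library, with an open triangle where a library had 0 reads. SMAD7 and HAS2 stand highest in the LINC00273-labelled library (337.8 and 39.7 for SMAD7 and HAS2, against 43.7 and 8.74 in the control), while HBB and HLA-B stand far below both other libraries there.

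The 25 protein-coding genes with the largest ratios ran from SMAD7 down to BAZ2B at 1.53, and all 25 stayed past 2-fold after centring on GC content. Those of cell-surface and adhesion proteins included FLRT2, which encodes a guidance and adhesion protein of the cell surface, with 192 reads in the LINC00273-labelled library, 46 in the M2 library and 34 in the control (2.73, 1.98 to 3.57). TMEFF2, a transmembrane protein with follistatin domains, had 617 labelled, 110 M2 and 203 control reads (1.84, 1.51 to 2.17), with the M2 library the lowest of the 3. CDH2, N-cadherin, had 235 labelled, 201 M2 and 86 control reads (1.68, 1.17 to 2.22), high in both the labelled and the M2 library. Against the M2 library, 6 of the 25 were at least 2-fold higher, namely TMEFF2 (2.10), FLRT2 (1.67), SMAD7 (1.41), HAS2 (1.33), STXBP6 (1.23) and TSHZ1 (1.02), and the other 19 lay within 2-fold. Ratios of the labelled and the M2 library over the control share that 1 control library.

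Enzymes and signalling adaptors made up another share of the 25. GLCE, an epimerase of heparan sulfate synthesis, had 165 reads in the LINC00273-labelled library, 140 in the M2 library and 48 in the control (2.01, 1.34 to 2.73). UGCG, glucosylceramide synthase, had 260 labelled, 198 M2 and 82 control reads (1.90, 1.38 to 2.44). PLOD2, a collagen lysyl hydroxylase, stood at 1.79 with 273 labelled, 162 M2 and 93 control reads. FRS2, an adaptor of FGF receptors, stood at 1.80 and NMT2, an N-myristoyltransferase, at 1.58. TFRC, the transferrin receptor, stood at 1.72 with 616 labelled, 760 M2 and 220 control reads. The genes of chromatin and RNA proteins were ASXL2, a Polycomb-associated regulator (517 labelled, 277 M2 and 139 control reads, 2.13), CBX3, a heterochromatin protein (1.77), BRMS1L, of a histone deacetylase complex (1.76), BAZ2B (1.53), the SUMO protease SENP1 (1.68), LARP4, which binds poly(A) RNA (1.78), MBNL2, a splicing regulator (1.65), and TNRC6A, a GW182 protein of microRNA silencing (1.66). JMY, an actin nucleator, stood at 1.56, SNX14, a sorting nexin, at 1.53, STXBP6 at 1.77 and TSHZ1 at 1.57.

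**Figure D3:**
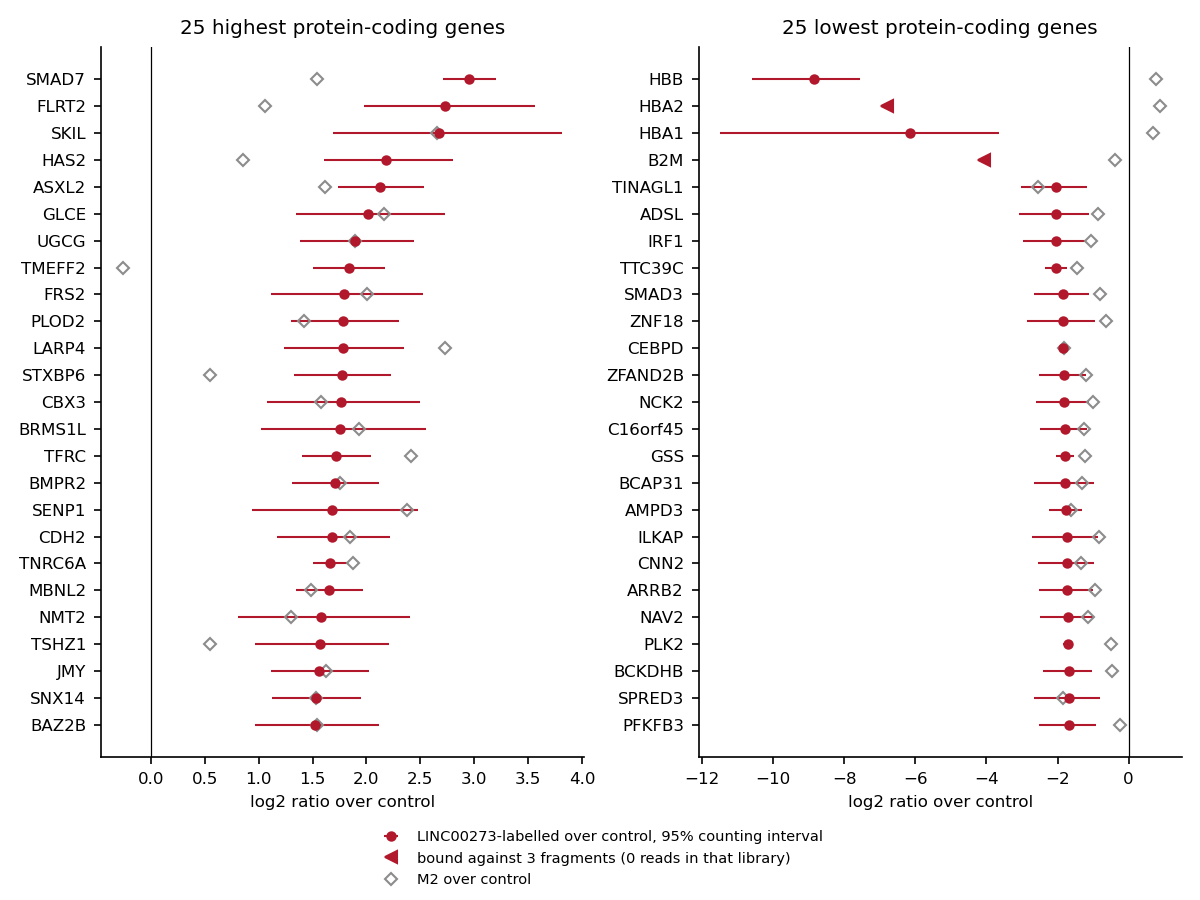
Log2 ratios over the control (horizontal) of the 25 highest (left) and 25 lowest (right) protein-coding genes, as filled points with 95% counting intervals for the LINC00273-labelled library and open diamonds for the M2 library. SMAD7, FLRT2, HAS2 and TMEFF2 stand apart from their M2 diamonds, and at the low end HBB, HBA1, HBA2 and B2M lie below −4 with M2 diamonds between −0.39 and 0.88.

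At the low end the largest differences were in globin genes, which red blood cells and their precursors express. HBB, beta globin, had 9 reads in the LINC00273-labelled library, 5417 in the M2 library and 4860 in the control (−8.85, −10.58 to −7.56), 460-fold lower. HBA2, alpha globin, had 0 labelled, 944 M2 and 788 control reads, at least 112-fold lower with 3 fragments set for the 0. HBA1 had 2 labelled, 175 M2 and 168 control reads (−6.16, −11.48 to −3.64). HBA1 and HBA2 are near-identical copies whose reads the counting could split. ALAS2, the first enzyme of haem synthesis in red cells, had 5 labelled, 20 M2 and 60 control reads. SLC25A37, the mitochondrial iron importer mitoferrin, had 12 labelled, 71 M2 and 62 control reads. Globin transcripts were abundant in both other libraries and nearly lacking in the labelled one. Summed over 16 red blood cell markers, the level was 14.5 scaled CPM in the LINC00273-labelled library, 1411 in the M2 library and 828 in the control, and 4 markers had no reads in the labelled library, 1 in the M2 library and 0 in the control. AHSP, the chaperone of alpha globin, was at or near 0 in all 3, with 0 labelled, 2 M2 and 2 control reads. Of the 7 measured markers 6 were at least 1.5-fold lower and 1 higher, against 25.2% lower and 21.7% higher over all measured genes.

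White blood cell markers summed to 19.7 scaled CPM in the LINC00273-labelled library, 55.5 in the M2 library and 42.7 in the control over 26 genes. S100A9, a calcium-binding protein of neutrophils and monocytes, had 2 labelled, 40 M2 and 46 control reads (−4.29, −9.66 to −1.67). PTPRC, the pan-leukocyte gene CD45, had 10 labelled, 46 M2 and 38 control reads (−1.69, −3.47 to −0.23). LCP1 had 10 labelled, 32 M2 and 30 control reads. LYZ had 2 labelled, 31 M2 and 11 control reads, S100A8 2 labelled, 18 M2 and 12 control reads and CD14 0 labelled, 4 M2 and 14 control reads. Other leukocyte markers had no such gap to the control, such as ITGAM with 12 labelled, 10 M2 and 15 control reads and CD4 with 15 labelled, 2 M2 and 12 control reads. IGKC was at 0 in all 3. Of the 8 measured, 4 were at least 1.5-fold lower and 0 higher, against 25.2% lower and 21.7% higher over all measured genes. The part of blood cell RNA in the other differences was not tested.

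MHC class I and antigen processing genes had a median of −1.18 over 17 measured of 24, the lowest of any list besides the red blood cell markers, and −0.98 after centring on GC content. 10 members were at least 1.5-fold lower and 2 higher, against 25.2% lower and 21.7% higher over all measured genes. The summed level of the 24 listed genes, to which CANX gave the most reads, was 519 scaled CPM in the LINC00273-labelled library, 640.0 in the M2 library and 435 in the control. B2M, which encodes the light chain that all class I heavy chains need, had 0 reads in the LINC00273-labelled library, 59 in the M2 library and 119 in the control, at least 16.9-fold lower. The heavy chain genes HLA-B (2 labelled, 47 M2 and 41 control reads, −4.13), HLA-E (5 labelled, 44 M2 and 53 control reads, −3.17) and HLA-C (6 labelled, 33 M2 and 55 control reads, −2.96) were lower with it. These heavy chain genes are close copies of each other, and their reads could be split between them. IRF1, a factor that switches on class I and immunoproteasome genes, had 28 labelled, 42 M2 and 135 control reads (−2.04, −2.98 to −1.19). PSMB8, an immunoproteasome subunit, had 27 labelled, 18 M2 and 92 control reads (−1.54, −2.53 to −0.64), here with the M2 library as low as the labelled one. PSMB10 had 2 labelled, 0 M2 and 25 control reads. The proteasome activators PSME1 (435 labelled, 497 M2 and 1201 control reads, −1.23) and PSME2 (1066 labelled, 1325 M2 and 3150 control reads, −1.33) were lower in both. NLRC5, another activator of class I genes, had 27 labelled, 10 M2 and 27 control reads (0.23), and the chaperone gene CANX was higher at 0.91. The class I genes B2M, HLA-B, HLA-C and HLA-E had more reads in the control and M2 libraries, the ones that also held blood cell transcripts, and how far the 2 patterns share a source was not tested.

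Among the 8828 measured genes, 32 were at least 8-fold lower in the LINC00273-labelled library and 12 at least 8-fold higher, and with at least 40 reads in 1 library 13 were lower and 1 higher. Besides globin, MHC and white blood cell genes, these included SDC2, the heparan sulfate proteoglycan syndecan 2, with 10 reads in the LINC00273-labelled library, 16 in the M2 library and 98 in the control (−3.06, −4.75 to −1.74). Others were ALKBH3, a nucleic acid demethylase (2 labelled, 12 M2 and 48 control reads), USB1 (4 labelled, 20 M2 and 46 control reads) and SEMA6A (4 labelled, 10 M2 and 45 control reads). The gene that was higher was ZNF449, a zinc finger gene, with 42 labelled, 26 M2 and 6 control reads (3.04, 1.30 to 5.43). NEAT1, the RNA of nuclear paraspeckles, had 2 labelled, 24 M2 and 36 control reads (−3.94). These genes were chosen after their values were seen.

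The other low protein-coding genes, ranks 5 to 25, lay between −2.05 and −1.68. CEBPD, an inflammatory transcription factor, had 941 reads in the LINC00273-labelled library, 730 in the M2 library and 3960 in the control (−1.84, −1.99 to −1.70), and its ratio with M2 over the same control was −1.82. PLK2, a stress-responsive kinase, had 1028 labelled, 1806 M2 and 3926 control reads (−1.70, −1.84 to −1.56), and its level was lower than in the M2 library too, by −1.20 (−1.36 to −1.04). TTC39C had 206 labelled, 234 M2 and 991 control reads (−2.03). GSS, glutathione synthetase, had 315 labelled, 353 M2 and 1278 control reads (−1.79). AMPD3, AMP deaminase, had 102 labelled, 86 M2 and 409 control reads (−1.77). TINAGL1, a matrix protein, had 26 labelled, 14 M2 and 126 control reads (−2.05). The purine enzyme ADSL (23 labelled, 40 M2 and 111 control reads, −2.04) and the glycolytic regulator PFKFB3 (35 labelled, 73 M2 and 132 control reads, −1.68) were lower too. ZNF18, ZFAND2B, NCK2, C16orf45, BCAP31, ILKAP, CNN2, ARRB2, NAV2, BCKDHB and SPRED3 had ratios from −1.85 to −1.69. Of non-coding genes with at least 100 reads in a library the lowest was RMRP, the RNA component of an endonuclease, with 16 labelled, 65 M2 and 106 control reads (−2.50, −3.78 to −1.41). SCARNA2, a Cajal body RNA, had 6 labelled, 40 M2 and 42 control reads.

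Genes of microRNA biogenesis and silencing were measured for 36 of 37, with 10 at least 1.5-fold higher, 2 lower and a median of 0.31 (0.16 after GC centring). Among all measured genes 21.7% were that much higher and 25.2% that much lower, with a median of −0.08 (0.10 after GC centring). TNRC6A had 2485 reads in the LINC00273-labelled library, 2202 in the M2 library and 923 in the control (1.66, 1.51 to 1.82), whereas its relatives TNRC6B (0.47) and TNRC6C (−0.29) were closer to the control. DICER1, which cuts precursors into mature microRNAs, had 313 labelled, 316 M2 and 180 control reads (1.03, 0.65 to 1.42). DROSHA (0.16), DGCR8 (−0.08) and the exporter XPO5 (−0.20), which act before it, had intervals that span 0. Among Argonautes AGO3 stood at 0.68 and AGO4 at 0.66, while AGO1 had 22 labelled, 3 M2 and 19 control reads and AGO2, the slicing Argonaute, had 500 labelled, 454 M2 and 619 control reads (−0.08, −0.32 to 0.17). Of the deadenylases and decapping factors that Argonaute recruits, CNOT1 (4586 labelled, 4701 M2 and 2265 control reads, 1.25, 1.15 to 1.35) and DDX6 (2473 labelled, 2657 M2 and 1333 control reads, 1.12, 0.99 to 1.26) were at least 1.5-fold higher. So were CNOT6 (1.01), EDC4 (0.89), DCP2 (0.68) and CNOT2 (0.64). MOV10 (−0.91) and TARBP2 (−0.63) were the 2 lower. XRN2, ZCCHC11, XRN1, TOB1, CNOT4, ZCCHC6, DCP1A, CNOT6L, CNOT7 and PAN3 lay between 0.15 and 0.58, and BTG3, PATL1, PRKRA, SND1, CNOT3, PAN2 and CNOT8 between −0.52 and −0.06. For TNRC6A, DICER1, CNOT1 and DDX6 the M2 library was as far above the control or further.

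Of 40 listed miR-200 targets 32 were measured, 12 at least 1.5-fold higher and 3 lower, with a median of 0.42 and 0.46 after GC centring. By the same cut, 21.7% of all measured genes stood above the control and 25.2% below it. The median of all measured genes was −0.08, or 0.10 once centred. ZEB1, a repressor of epithelial genes, had 404 reads in the LINC00273-labelled library, 296 in the M2 library and 248 in the control (0.94, 0.61 to 1.27). ZEB2 had 3419 labelled, 2798 M2 and 2310 control reads (0.80, 0.69 to 0.91). SUZ12, a Polycomb subunit, had 652 labelled, 688 M2 and 291 control reads (1.40, 1.11 to 1.69). VEGFA, the angiogenic growth factor, had 879 labelled, 300 M2 and 446 control reads (1.21, 0.97 to 1.45). FN1 is on this list too. SIRT1 (1.03), ERBB2IP (0.96), KLF9 (0.96) and SEC23A (0.89) were higher, as were WIPF1 and FHOD1 on at most 25 reads in each library. The 3 lower were TIMP2, a metalloprotease inhibitor, with 230 labelled, 118 M2 and 665 control reads (−1.30, −1.62 to −0.99), ELMO2 (−1.04) and RHOA. RHOA, a small GTPase of the cytoskeleton, had 5354 labelled, 4315 M2 and 9470 control reads (−0.59, −0.66 to −0.52). The others ran from −0.51 (PLCG1) and −0.49 (FLNA) through CTNNB1 (−0.26), ETS1 (−0.08), MSN (0.10) and QKI (0.40) to RECK (0.59).

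The EMT transcription factors did not lie on 1 side of the control. Of 9 measured, ZEB1, ZEB2 and TCF4 (0.65) were at least 1.5-fold higher, and TWIST1 with 710 reads in the LINC00273-labelled library, 612 in the M2 library and 1711 in the control (−1.04, −1.22 to −0.86), TCF3 (−0.86) and TWIST2 (−0.61) were lower. PRRX1 had 1306 labelled, 583 M2 and 2042 control reads (−0.41, −0.56 to −0.27) and SNAI2 had 12 labelled, 17 M2 and 16 control reads. SNAI1 had 0 labelled, 0 M2 and 2 control reads. Their median was −0.18, which total-count scaling turns positive. Of 12 measured mesenchymal genes CDH2, FN1 and COL3A1 were higher and SPARC, with 1788 labelled, 447 M2 and 3272 control reads (−0.64, −0.76 to −0.52), was lower, while ITGB1 stood at 0.48 and AXL at −0.56. Of the invasion genes the sheddase ADAM10 had 960 labelled, 884 M2 and 435 control reads (1.37, 1.14 to 1.61). MMP14, a collagen-degrading membrane protease, had 139 labelled, 41 M2 and 259 control reads (−0.67, −1.11 to −0.23). Of 12 measured stemness factors 1 was at least 1.5-fold higher and 2 lower. SOX2 had 140 labelled, 191 M2 and 235 control reads (−0.52). HMGA1, an architectural chromatin protein, had 125 labelled, 131 M2 and 373 control reads (−1.35, −1.78 to −0.93). HMGA2 had 913 labelled, 245 M2 and 753 control reads (0.51, 0.31 to 0.71). Of 19 measured drug efflux and drug response genes 5 were higher, among them the apoptosis inhibitor XIAP (1.02) and the topoisomerase genes TOP1 (0.90) and TOP2A (0.72), and 3 were lower, among them BCL2L1 (−0.84). Their median was −0.01, and over all measured genes 21.7% were at least 1.5-fold higher and 25.2% lower.

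Of the helicases and other proteins that bind G-quadruplexes 33 of 37 were measured, and 16 were at least 1.5-fold higher and 2 lower, with a median of 0.58 and 0.40 after GC centring. DHX36, the main resolver of these folds, had 118 reads in the LINC00273-labelled library, 114 in the M2 library and 63 in the control (1.14, 0.49 to 1.81). BLM, the Bloom syndrome helicase, had 60 labelled, 76 M2 and 30 control reads (1.23, 0.29 to 2.23). DHX9 had 871 labelled, 902 M2 and 496 control reads (1.04, 0.82 to 1.27). Of RNA-binding members HNRNPH1 had 6833 labelled, 7551 M2 and 3884 control reads (1.05, 0.97 to 1.13), HNRNPH2 stood at 1.09, TAF15 at 1.01, DDX3X at 0.96, nucleolin (NCL) at 0.87, FXR1 at 0.81, HNRNPA1 at 0.65 and NPM1 at 0.61. ATRX, a chromatin remodeller that binds these folds, stood at 0.60. ERCC2, a helicase of nucleotide excision repair, had 76 labelled, 84 M2 and 203 control reads (−1.19, −1.76 to −0.63) and was lower, as was TERF1 on 6 labelled, 4 M2 and 16 control reads. CNBP, EWSR1, FXR2 and LARP1 lay between −0.53 and −0.38, and HNRNPA2B1, DDX5, SRSF1, HNRNPU, SP1 and HNRNPF between −0.07 and 0.52. Of 20 measured oncogenes with promoter G-quadruplexes 11 were at least 1.5-fold higher and 2 lower, with a median of 0.60 and 0.54 after GC centring. For both lists, all measured genes give the background, with 21.7% above and 25.2% below by 1.5-fold. The background median was −0.08, or 0.10 once centred. Only 9 of the 20 reached 100 reads in a library, and 1 of those, VEGFA, was at least 2-fold higher. With M2 over the same control the median of these oncogenes was −0.01. HIF1A, the hypoxia factor, stood at 0.61 and HSP90AA1 at 0.63. RB1 had 34 labelled, 37 M2 and 9 control reads and MYC had 176 labelled, 176 M2 and 242 control reads (−0.23, −0.64 to 0.18).

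Large groups of nuclear and ubiquitin genes stood above the median. Over all measured genes 21.7% were at least 1.5-fold higher and 25.2% lower. Of 22 measured cohesin, condensin and SMC genes, which hold and fold chromosomes, 8 were at least 1.5-fold higher and 1 lower, with PDS5B (423 reads in the LINC00273-labelled library, 418 in the M2 library and 186 in the control, 1.42) and SMC3 (1196 labelled, 1586 M2 and 555 control reads, 1.34) leading. Their median of 0.53 was 0.13 after GC centring, against 0.10 for all measured genes. Of 44 DNA repair genes 18 were higher and 1 lower (median 0.48, 0.30 after centring), led by the checkpoint kinase CHEK1 with 36 labelled, 14 M2 and 10 control reads. Over the 11 repair genes that reached 100 reads the median was 0.04, and 0 of them were 2-fold higher. Of 44 ubiquitin ligases 18 were higher and 3 lower (median 0.44, 0.25 after centring), with WWP1 at 1.38 and MYCBP2 at 1.05. Of 45 nuclear pore and transport genes 20 were higher and 4 lower (0.40, 0.27 after centring), with the importin KPNA3 (2174 labelled, 1787 M2 and 1048 control reads) at 1.28. Of 55 chromatin remodellers and acetylation genes 19 were higher and 6 lower, with BAZ1A at 1.48 and KAT6A at 1.16. Their median was 0.26, and 0.51 after centring. Of 46 deubiquitinases and SUMO proteases 16 were higher, such as OTUD4 (1.27), and 11 lower, such as USP4 (1048 labelled, 1044 M2 and 2481 control reads, −1.01). The lower count was near the share over all measured genes, and the median was 0.35 (0.18 after centring). With M2 over the same control the medians were 0.98 for cohesin, condensin and SMC genes, 0.31 for DNA repair and 0.76 for ubiquitin ligases. They were 0.57 for nuclear pore genes, 0.43 for chromatin remodellers and 0.70 for deubiquitinases.

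Genes of ribosomal proteins, the proteasome and the respiratory chain lay lower. Translation initiation and elongation factors did not, with 9 of 43 measured at least 1.5-fold higher, 11 lower and a median of −0.06. Over all measured genes 21.7% were that much higher and 25.2% that much lower. For cytosolic ribosomal proteins, 43 of 67 measured genes lay 1.5-fold or more below the control and 0 above it, with a median of −0.70 and −0.37 after GC centring. RPLP0 had 20583 reads in the LINC00273-labelled library, 23037 in the M2 library and 42633 in the control (−0.82, −0.85 to −0.78). RPS14 had 3823 labelled, 3131 M2 and 9514 control reads (−1.08). Most of these genes have many pseudogenes whose reads could be split from theirs. Of 37 proteasome genes 21 were lower and 2 higher (median −0.67, −0.41 after centring), with PSMD2 (3391 labelled, 3881 M2 and 7790 control reads) at −0.97 and PSMD1 (2227 labelled, 2828 M2 and 1546 control reads) at 0.76. Of 17 nuclear-encoded respiratory chain genes 11 were lower and 1 higher (−0.73, −0.29 after centring), including SDHA (268 labelled, 238 M2 and 737 control reads, −1.23). Of 15 replication-dependent histone genes 11 were lower and 1 higher (−0.88, −0.36 after centring). Of 13 small structural RNAs 9 were lower and 0 higher (−0.87, −0.56 after centring), with RN7SK at −1.20. Of 23 glycolysis genes 10 were lower and 3 higher, among them GAPDH (−0.96) and the glucose transporter SLC2A1 (−1.08), and their median of −0.34 was −0.01 after centring and turns positive with total-count scaling. Of 26 measured caveolae and endocytosis genes 7 were higher and 9 lower (median −0.36, 0.04 after centring). The caveolar genes CAV1, with 208 labelled, 288 M2 and 725 control reads (−1.57, −1.90 to −1.25), and PTRF, cavin 1, with 668 labelled, 598 M2 and 2410 control reads (−1.62, −1.80 to −1.44), were low in both the labelled and the M2 library.

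**Figure D4:**
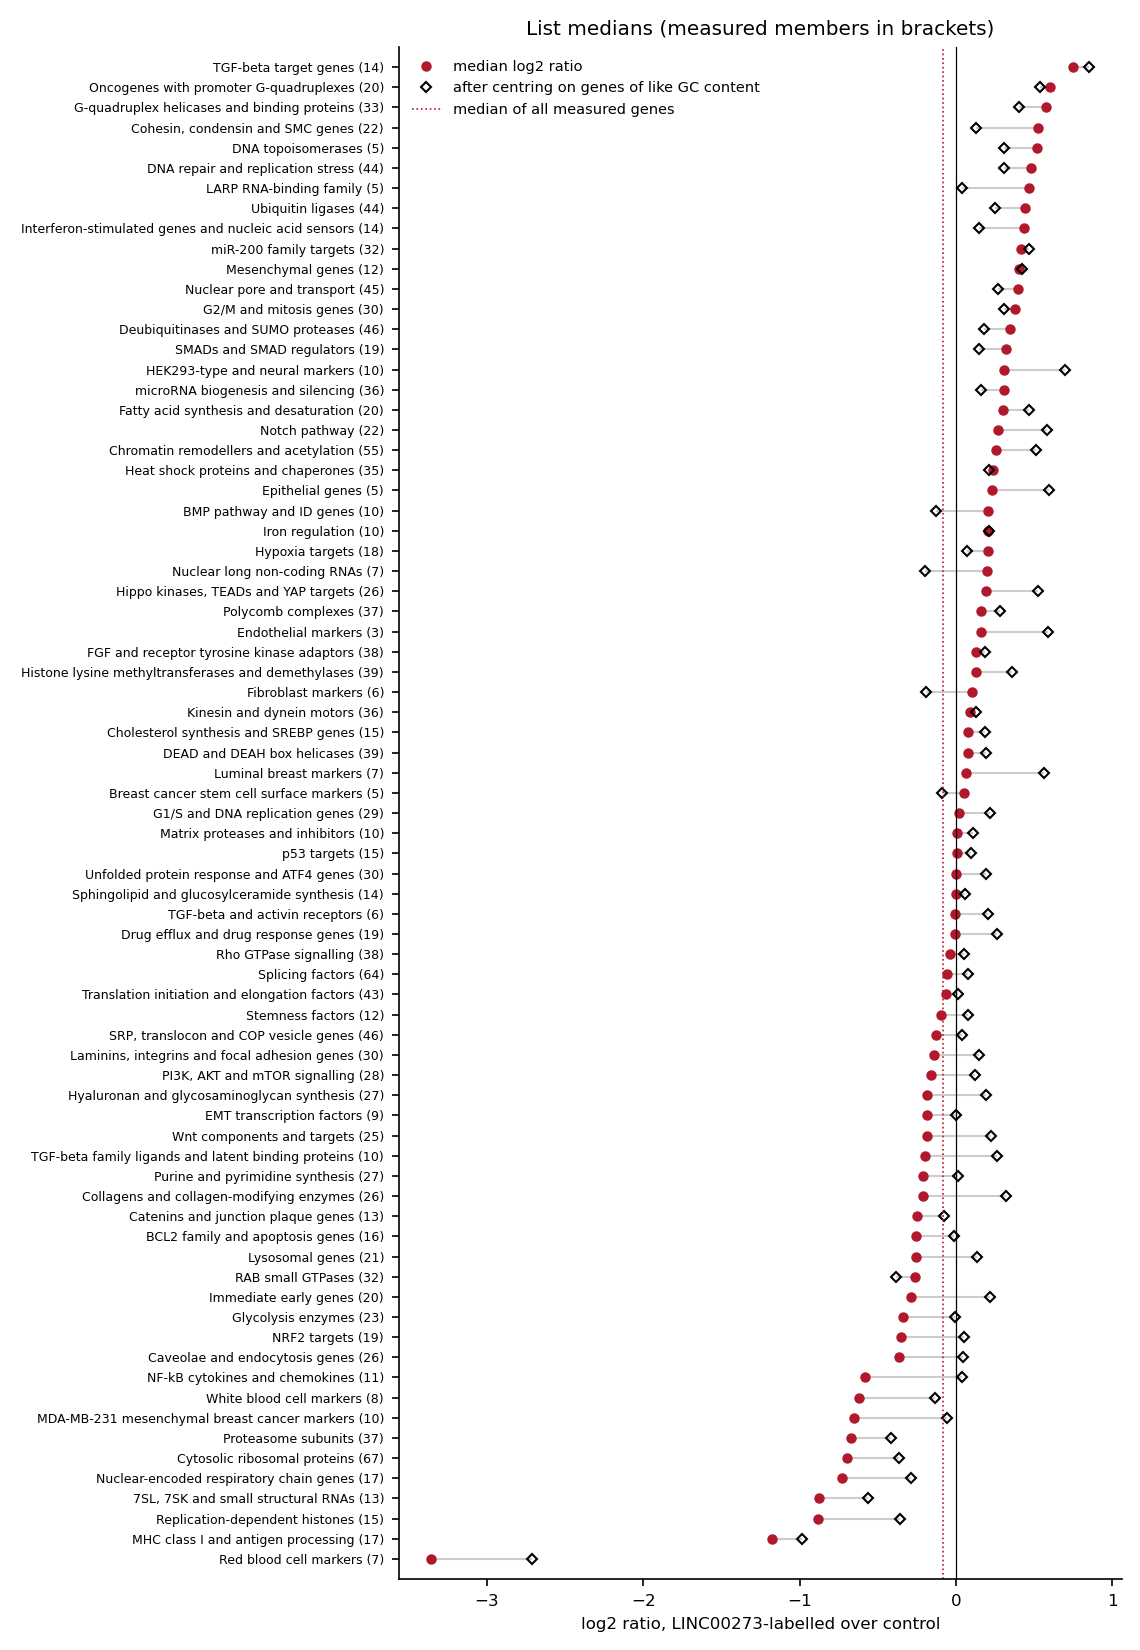
Median log2 ratio of the LINC00273-labelled library over the control for 75 gene lists with at least 3 measured members (number in brackets), as filled points, and after centring on genes of like GC content, as open diamonds. TGF-beta target genes are highest at 0.75 and red blood cell markers lowest at −3.35, and the dotted line marks the median of all measured genes, −0.08.

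The ratio differed with the base composition of the transcript. With the genes cut into 5 equal bins by GC content, the median log2 ratio was 0.45 in the lowest bin, which held 100 genes 2-fold or more higher and 6 lower. It was −0.62 in the highest bin, which held 1 higher and 105 lower. The 1 higher gene of the highest bin was SMAD7, with a GC content of 58.7%, whose ratio after centring was 3.56. The median transcript length was 6624 nt for the higher genes, 2599 nt for the lower genes and 4119 nt for all tested, and the median GC content was 53.2% for the lower genes and 45.9% for all. Centred in this way 135 genes were 2-fold or more higher and 135 lower, 85 and 67 of them among those counted before. The M2 library against the same control had medians of 0.89 and −0.67 in the lowest and highest bin. By transcript length, also in 5 bins, the median log2 ratio was −0.61 in the shortest and 0.36 in the longest. After centring on GC content these medians were −0.20 and 0.22, so a trend with length remained. Measured ribosomal protein genes had a median length of 1826 nt, proteasome genes 2670 nt and chromatin remodellers 7923 nt. What part of each difference follows base composition or length was not tested gene by gene beyond the centring on GC content.

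**Figure D5:**
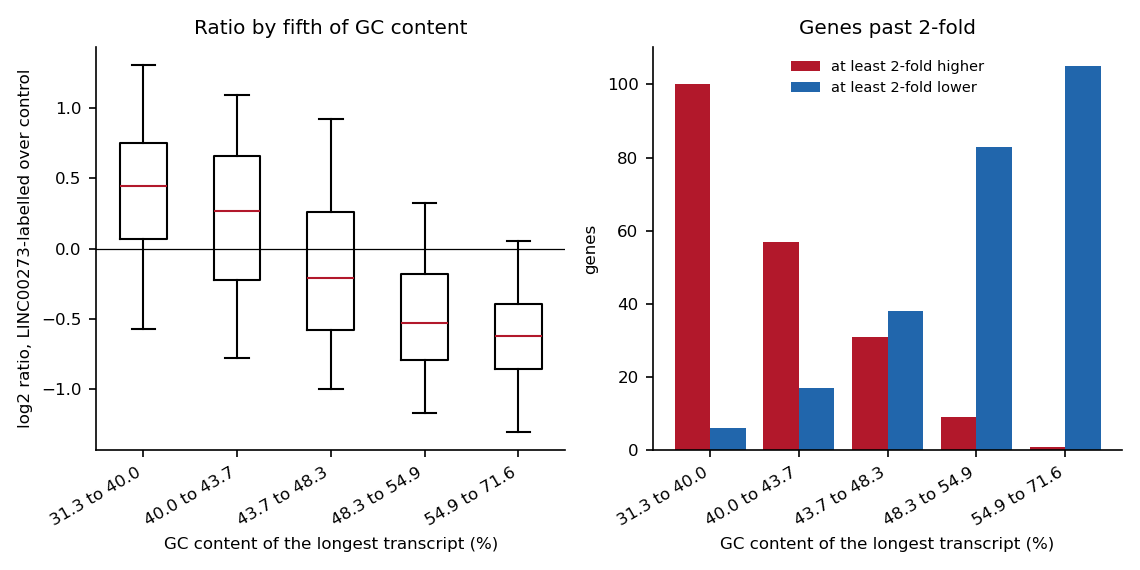
Left, log2 ratio of the LINC00273-labelled library over the control by bin of transcript GC content (5 bins of equal size) (box, quartiles, line, median, whiskers, 5th and 95th percentile). Right, genes at least 2-fold higher and lower in each bin, from 100 and 6 in the lowest to 1 and 105 in the highest.

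The authors' deposited table for this comparison lists 809 genes, 479 marked up and 330 marked down, and 637 of them (78.7%) had fewer than 20 reads in both libraries while 12 had at least 100 in 1 library. It holds 5 of the 199 genes counted here as higher (2.51%) and 7 of the 254 lower (2.76%), together 1.48% of its genes. A call here needed 100 reads in 1 library. So only those 12 genes of the authors' table could be called, and all 12 were, 5 as higher and 7 as lower. Its genes marked up had log2 ratios of at least 2.18 and those marked down of at most −1.87, while a call here needed 2-fold. It lists 0 genes with 0 reads in a library, so the overlap compares lists made by unlike rules. In the authors' deposited table of Reactome terms, the genes marked down were enriched for Endosomal/Vacuolar pathway at 25.65-fold, Interferon gamma signaling at 7.61-fold and Neutrophil degranulation at 3.38-fold. For the genes marked up the authors' deposited table of terms gives vitamin transmembrane transporter activity at 11.08-fold. It also gives intrinsic component of plasma membrane at 1.91-fold and integral component of plasma membrane at 1.89-fold.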

How the data were processed

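RNA of 3 sphere cultures, 1 library each, was depleted of ribosomal RNA and sequenced as 150-bp paired ends. The submitters' processing notes name Trimmomatic, Bowtie2 2.2.4, STAR, featureCounts 1.5.2, DESeq2 and the build hg19. For strand and multi-mapped reads the settings were not given in the sources used here. The values that the authors deposited per gene and library are a signal, gene counts divided by a size factor per library. The table's fold change is a ratio, its log2 column is the log2 of that ratio, and its p-value column is the authors' deposited test on 1 library a side, which was not used.

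Dividing each deposited value by the step of its library gave whole reads for all values within 0.01, so read counts were recovered and used, where the plan had assumed deposited counts. Fragments are reads over 2. Libraries were scaled with TMM over all 3 (edgeR 4.0.16, R 4.3.3), with DESeq2 1.42.0 size factors, the total count and others as alternatives. A gene that reached 100 reads in either library was compared by size, with a call at 2-fold. List members were measured at 20 reads over both libraries and counted at 1.5-fold. A gene with 0 reads in 1 library was set to 3 fragments there, and its ratio is a bound. Intervals are at the 95% level and cover counting error only, since PCR copies carry no molecular identifiers. GC content and length come from the longest GENCODE 29 transcript, and GC centring subtracts a running median over genes of like GC content. The genes named are the 25 highest and 25 lowest protein-coding genes tested, the extremes of the other classes and the members of the lists. Members and lists were chosen with earlier results of these data known. Some named by this rule are not reported here. The ratio, interval and call steps were tested on simulated data with counting error only and the scaling factors given. That test could not check the scaling or trends with GC content and length. No column was left unmapped.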

Additional observations from a re-analysis of the deposited data

How the results depend on the processing

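The counts of genes at least 2-fold higher and lower (199 and 254) depended on the scaling, the minimum of reads and the fold. Scaling to the total count gave 823 higher and 37 lower, and centring on the median of all genes gave 391 and 115. Centring on GC content left 135 lower. A minimum of 20 reads gave 608 higher and 706 lower, a minimum of 500 reads 73 and 77, and none 2760 and 1824. A call at 4-fold gave 6 and 9. DESeq2 size factors gave 240 and 214, the deposited size factors 265 and 187. The share of higher genes among all called was 43.9% as reported, 95.7% with the total count, 77.3% centred on the median, 58.6% with the deposited size factors and 60.2% with no minimum. No value turned its direction past the 2-fold call, but of the 150 single-gene and list values 80 moved by more than their spread with the total count, which raised each by 0.52. With DESeq2 size factors 15 of 150 did, with the deposited size factors 15, with GC centring 37 of 146 and with a prior of 5 reads 0 of 150. With a minimum of 100 reads 3 of 66 list medians moved, to 0.04 for DNA repair genes, 0.39 for Polycomb genes and 0.72 for mitosis genes. The cause of the differences between scalings was not tested. No paired analysis was possible because the groups share only 1 replicate number and hold 1 library each. Depth limits low genes: a gene with 0 reads can have up to 1.17 CPM in the LINC00273-labelled library and 0.696 in the control.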
